A study of Mus musculus with 2 samples.

Results

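Immediate-early genes are switched on within minutes of a stimulus, from factors already present in the cell, and their transcripts are short-lived. Many of them encode subunits of AP-1, a dimer of a Fos-family and a Jun-family protein, or of Jun proteins with ATF proteins, that binds DNA through a basic leucine zipper and acts downstream of the MAP kinases. In myeloid cells these genes respond to growth factors, microbial products and adhesion, and they are also known to be induced while a tissue is taken apart into single cells, which makes them a common check on handling stress. All 10 genes described here were chosen by name as such a check and were found among the 32285 genes listed: the Fos family (Fos, Fosb and Fosl2), the Jun family (Jun, Junb and Jund), Atf3, Egr1, Ier2 and Dusp1.

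The cells were GR1+ myeloid cells taken with magnetic beads from 4T1 breast carcinomas, a transplantable tumour line grown in BALB/c mice aged 6 to 8 weeks. The non-responding tumours came from the parental line (4T1P) and the responding tumours from a mutagenized clone (4T1M), and the profiled tumours were untreated. The mutagenized arm is 1 derivative of the line, so that the derivative and the response cannot be told apart. The study calls it a clone, while its methods also describe the mutagenized cells as multiclonal. Each arm was, per the labels, a pool of 5 mice (the study's text also gives another number) and gave 1 droplet library, so that no value below has a replicate between arms, and all intervals cover counting error only.

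The 4T1P library held 2947 barcodes and the 4T1M library 5004, with 21855657 and 24303957 UMIs (unique molecules counted at the 3' end). Retained were the 1726 and 3461 barcodes that had between 500 and 5000 genes and no more than 10% of their UMIs from mitochondria, and 5 barcode sequences occurred in both libraries. Neutrophils were defined by S100a8 and S100a9 (612 and 1686 cells), macrophages by low S100a8 and S100a9 with C1q genes, Apoe, Csf1r, Cd68 and Fn1 (798 and 976) and T/NK cells by at least 2 of 6 lymphocyte genes (74 and 98), and no member entered these rules. The labels name only GR1+ myeloid cells, so the lymphocytes, although few, were not the target of the selection. The neutrophil and macrophage names held against separate markers. Summed neutrophil markers such as Csf3r and Cxcr2 stood at 18275 and 15407 counts per 1000000 UMIs (CPM) in neutrophils against 421 and 558 in macrophages, and macrophage markers such as Adgre1 and Mrc1 at 5884 and 5287 CPM in macrophages against 498 and 587 in neutrophils. T/NK markers reached 5284 and 4406 CPM in T/NK cells and at most 30.8 elsewhere. That list holds the 6 genes of the rule, so its sum is no separate check of the name. Outside the rule, Cd2 stood at 340 and 173 CPM in T/NK cells and Lck at 318 and 215, against at most 2.4 elsewhere. The median depth was 3055 and 2958 UMIs in neutrophils, 9727 and 9214 in macrophages and 5640 and 5597 in T/NK cells.

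The promoters of members that behaved differently are shown first, since the letters around the start site are part of what is known about how each is controlled. RefSeq (GRCm38.p6) gave a window of 250 bases before to 50 after the start for 8 of the 10 genes, and Egr1 and Ier2 are named only. In the windows, capitals mark any match, on either strand, to the AP-1 site TGANTCA, its longer form TGANNTCA that Jun and ATF dimers also bind, the cyclic AMP response half-site TGACG, the CArG box of serum response factor, or TATAAA. Fos lies at chr12:85473640-85473939 on the plus strand, Fosb at chr7:19309996-19310295, Jun at chr4:95052173-95052472 and Dusp1 at chr17:26508423-26508722, the last 3 on the minus strand, and each is given 5' to 3' in the direction of transcription.
Fos: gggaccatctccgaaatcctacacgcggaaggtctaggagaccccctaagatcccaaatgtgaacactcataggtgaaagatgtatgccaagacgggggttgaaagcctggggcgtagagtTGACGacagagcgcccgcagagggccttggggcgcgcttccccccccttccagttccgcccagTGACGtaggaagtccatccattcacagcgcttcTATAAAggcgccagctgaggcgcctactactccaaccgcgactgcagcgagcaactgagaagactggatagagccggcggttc
Fosb: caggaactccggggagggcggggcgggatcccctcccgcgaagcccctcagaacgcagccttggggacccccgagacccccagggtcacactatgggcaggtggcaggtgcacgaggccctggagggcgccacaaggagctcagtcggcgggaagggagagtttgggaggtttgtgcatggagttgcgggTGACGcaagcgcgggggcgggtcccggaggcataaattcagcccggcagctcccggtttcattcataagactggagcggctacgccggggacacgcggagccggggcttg
Jun: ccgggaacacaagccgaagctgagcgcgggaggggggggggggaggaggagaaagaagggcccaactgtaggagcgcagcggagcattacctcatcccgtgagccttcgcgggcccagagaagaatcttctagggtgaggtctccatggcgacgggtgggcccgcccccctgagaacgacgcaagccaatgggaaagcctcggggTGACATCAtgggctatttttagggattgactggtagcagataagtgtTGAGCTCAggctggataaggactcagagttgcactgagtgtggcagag
Dusp1: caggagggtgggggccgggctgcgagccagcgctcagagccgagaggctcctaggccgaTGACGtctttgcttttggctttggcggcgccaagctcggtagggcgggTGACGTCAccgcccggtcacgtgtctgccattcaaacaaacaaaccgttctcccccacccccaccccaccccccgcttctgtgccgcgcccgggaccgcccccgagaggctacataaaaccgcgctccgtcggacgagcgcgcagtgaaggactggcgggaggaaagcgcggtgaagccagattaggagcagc

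The Fos window held TGACG at positions -129 and -66 from the start and TATAAA at -33, whereas the Fosb window held a single TGACG at -60. The Jun window held TGANNTCA as TGACATCA at -45 and as TGAGCTCA just after the start, and neither TGACG nor TATAAA. The Dusp1 window held the palindrome TGACGTCA at -143, which counts as both TGANNTCA and TGACG, and another TGACG further upstream. Of the 32851 windows in the RefSeq table, 14.1% held TGANNTCA, 20.8% TGACG and 13.6% TATAAA. Among the 8 member windows 3 held TGANNTCA (Jun, Jund and Dusp1), 5 held TGACG (Fos, Fosb, Junb, Atf3 and Dusp1) and 2 held TATAAA (Fos and Junb). The Junb TATAAA began at position 0, on the start used for its window. The annotated Junb gene begins further downstream, at 84978718 on the minus strand, so the TATAAA lies upstream of that start. TGANTCA (7.81% of windows) and the CArG box (1.63%) were matched in no member window. The Jund window, chr8:70697489-70697788, ends before the start of the annotated Jund gene at 70698949, so its match lies off that start. The Atf3 and Dusp1 windows lie inside their annotated genes, which on the minus strand begin at 191218039 and 26562128, so their matches lie off those starts too. The Fosl2 window, chr5:32136222-32136521, held no match. It also lies inside its annotated gene, which on the plus strand begins at 32135801. The known serum response element of Fos lies upstream of the Fos window.

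The 10 genes together took 0.777% of all neutrophil UMIs in 4T1P and 0.800% in 4T1M, 0.910% and 0.798% of macrophage UMIs, and 0.640% and 0.572% of T/NK UMIs. All 10 were counted in every class of both libraries. Each class had its own order. Because a molecule is counted once whatever its length, the levels are given in CPM and not per length. CPM is taken per total UMIs, and for some members the order of the classes changed with the scaling, as given below. In neutrophils Junb came first in both libraries, followed by Dusp1, and Fosb was last. In macrophages Junb was again first, but Egr1 and Fos followed it and Fosl2 was last. In T/NK cells Junb and Jund came first, and Atf3 and Egr1 were the last 2 genes in 4T1P.

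**Figure D1:**
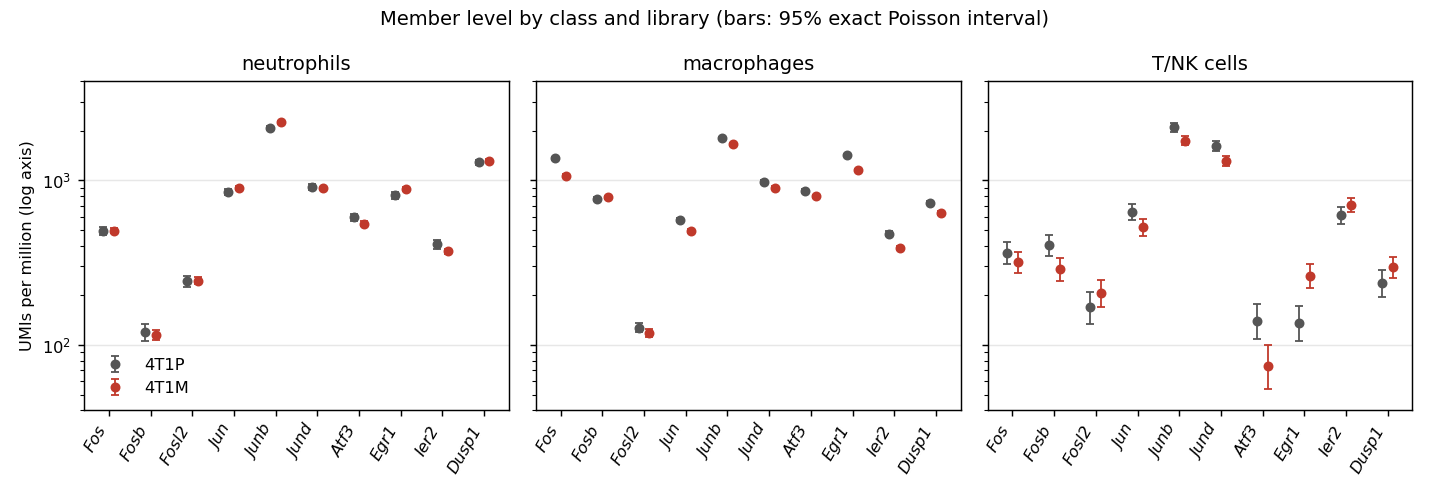
Level of each member in CPM (log axis) in neutrophils, macrophages and T/NK cells of the 4T1P library (grey) and the 4T1M library (red), with 95% exact Poisson intervals. Junb stood between 1649 and 2245 in every class and library, whereas Fosb ranged from 115 in neutrophils to 788 in macrophages.

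Fos, the founding member of the family and a partner for all Jun proteins, stood at 490 CPM in 4T1P neutrophils (95% Poisson interval 463 to 518) and 492 in 4T1M neutrophils. Its level was 1354 and 1066 CPM in macrophages and 363 and 317 in T/NK cells. Macrophages were thus highest in both libraries, and the macrophage and neutrophil values did not overlap. Fosb, which encodes a full and a truncated Fos-like protein, showed the widest gap of the 10 genes between myeloid classes per total UMIs. It stood at 119 and 115 CPM in neutrophils against 767 and 788 in macrophages, with T/NK cells between them at 402 and 288. Fosl2 (Fra-2), a later and more stable member of the family, had the opposite order, at 243 and 245 CPM in neutrophils, 127 and 118 in macrophages and 169 and 206 in T/NK cells.

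Jun, the main partner of Fos, stood at 846 and 899 CPM in neutrophils, 576 and 494 in macrophages and 639 and 516 in T/NK cells. Junb, which is needed to restrain myeloid proliferation, stood at 2071 and 2245 CPM in neutrophils, 1804 and 1649 in macrophages and 2091 and 1739 in T/NK cells. Jund, the least inducible of the 3 Jun genes, reached 1607 and 1310 CPM in T/NK cells, above the 910 and 891 of neutrophils and the 975 and 902 of macrophages. The macrophage and neutrophil values of Jund lay within their counting intervals of each other in 4T1M.

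Atf3, a stress-induced ATF factor that damps inflammatory transcription, stood at 595 and 545 CPM in neutrophils, 860 and 797 in macrophages and only 140 and 74.5 in T/NK cells. Egr1, a zinc-finger factor induced through serum response factor, stood at 809 and 884 CPM in neutrophils, 1426 and 1152 in macrophages and 136 and 263 in T/NK cells. Per total UMIs Ier2, a small nuclear protein of the early response, was highest in T/NK cells, at 612 and 709 CPM, against 408 and 370 in neutrophils and 474 and 388 in macrophages. Dusp1, the phosphatase that switches off p38 and JNK, stood at 1282 and 1314 CPM in neutrophils, 731 and 630 in macrophages and 237 and 296 in T/NK cells.

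The share of cells holding at least 1 UMI was compared after thinning each cell to 1000 UMIs, which left out 0 and 4 neutrophils, 26 and 37 macrophages and at most 1 T/NK cell. Dusp1 was then found in 62.3% of 4T1P neutrophils (exact binomial interval 58.3% to 66.1%) and 61.5% of 4T1M neutrophils, against 37.7% and 36.1% of macrophages and 14.9% and 17.5% of T/NK cells. Fosb was found in 7.84% and 9.45% of neutrophils and 37.0% and 37.5% of macrophages. Without thinning, the Fosb shares were 23.2% and 21.2% in neutrophils and 67.0% and 66.0% in macrophages. No class here is known to lack these genes, so that no background share could be set. The lowest thinned share of any member was that of Atf3 in T/NK cells, 4.05% and 4.12% at 1000 UMIs a cell. Without thinning, at median depths of 5640 and 5597 UMIs, it was 17.6% in 4T1P and 9.18% in 4T1M. The median thinned neutrophil held UMIs of 4 of the 10 members in both libraries, as did the median macrophage, whereas the median T/NK cell held 3. Cells with none of the 10 were 2.45% and 1.31% of neutrophils but 9.07% and 10.1% of macrophages, and cells with 6 or more were 19.8% and 18.3% of neutrophils and 27.7% and 23.3% of macrophages. Macrophages thus spread further to both ends than neutrophils.

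Between neutrophils of one library, Jun and Fos were the most uneven members. Their variance over their mean, at 1000 UMIs a cell, was 4.28 and 5.05 for Jun and 3.48 and 4.92 for Fos, against 1.15 and 1.10 for Fosl2, where pure counting gives 1. In macrophages Egr1 was the most uneven, at 3.40 and 3.83, and Fosl2 again the least, at 1.07 and 1.001. Correlations across thinned cells ran up to 0.35 in neutrophils and 0.37 in macrophages over all pairs of members. Between Fos and Jun, Pearson's r was 0.20 and 0.35 over 612 and 1682 neutrophils and 0.33 and 0.36 over 772 and 939 macrophages, values that share library and depth and are given as a description. Over 97 T/NK cells of 4T1M it was 0.51 for Fos and Jun and 0.59 for Jun and Egr1, in a class where few cells held most of these UMIs. Over 74 T/NK cells of 4T1P the same pairs had only -0.07 and 0.08.

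The first comparison asks whether these genes differed between the responding and the non-responding tumours. With 1 library per arm it has no test, and a gene was counted as past the fold at a ratio of 1.5 or more in either direction, over genes whose UMIs reached 50 when the libraries were added. In neutrophils 0 of the 10 members were past the fold in either direction, against 9.81% of the 6465 genes counted that were higher in 4T1M and 3.12% that were lower. The 10 log2 ratios of 4T1M over 4T1P ran from -0.14 for Ier2 to 0.13 for Egr1, with a median of 0.01 against 0.05 over all genes. Neutrophils low in S100a8 and S100a9 fell outside the class rule and so outside these values. The paper reports lower mRNA of both genes in the interferon-stimulated neutrophils that it links to response. In macrophages 0 of 10 were past the fold, against 4.03% of 9874 genes higher and 4.08% lower. There 9 of the 10 ratios were below 0, with a median of -0.17 against -0.03 over all genes. Fos lay furthest from 0 in macrophages at -0.35 (counting interval -0.38 to -0.31), followed by Egr1 at -0.31 and Ier2 at -0.29, and Fosb alone was above 0, at 0.04. The macrophage sum of the 10 genes was lower in 4T1M by 0.19 on the log2 scale, and over only the macrophages with at most 5% mitochondrial UMIs the log2 ratio of the sum was -0.09, with Jun at 0.05 and Atf3 at 0.0048 instead of -0.22 and -0.11.

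**Figure D2:**
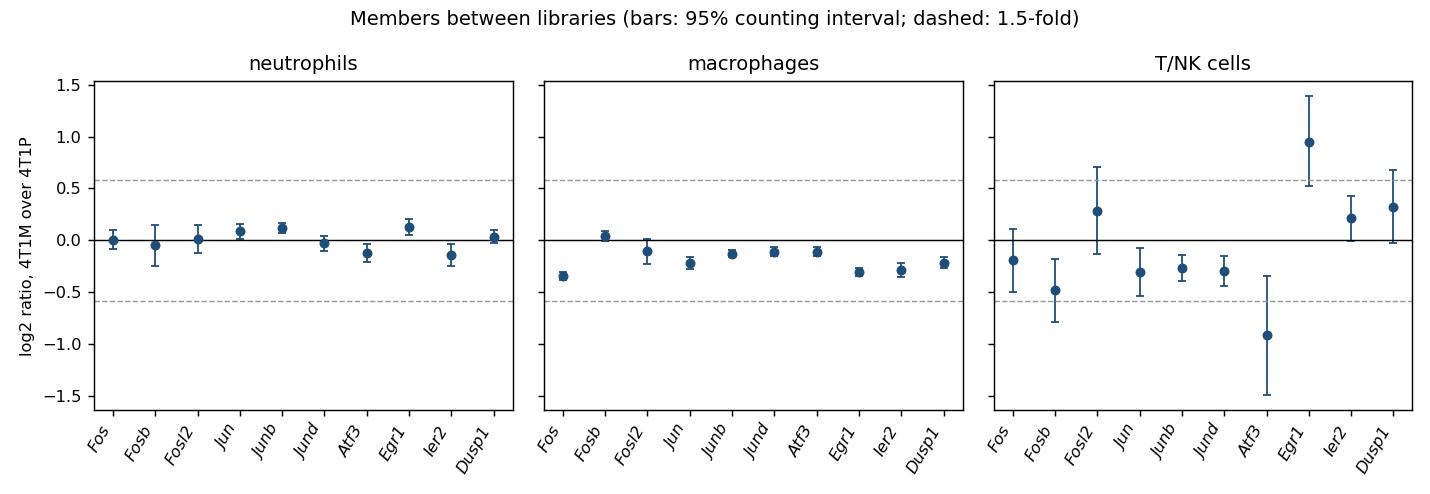
Log2 ratio of 4T1M over 4T1P for each member (y axis) in neutrophils, macrophages and T/NK cells, with 95% counting intervals and dashed lines at 1.5-fold. All 10 neutrophil points sit between -0.14 and 0.13, and only Egr1 and Atf3 in T/NK cells lie past a dashed line.

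In T/NK cells 1 member was past the fold on each side, against 5.57% of 3162 genes higher and 12.2% lower. Egr1 stood at 0.95 (0.53 to 1.39), from 66 and 152 UMIs, and Atf3 at -0.91 (-1.50 to -0.34), from 68 and 43 UMIs. Both rested on a handful of cells. The 5 T/NK cells with the most Egr1 held 63.6% of its UMIs in 4T1P and 69.1% in 4T1M, and 1 cell alone held 62 of the 152. The corresponding 5 cells held 85.3% and 90.7% of the Atf3 UMIs. Without the deepest 5% of cells no member was higher in 4T1M T/NK cells past the fold and 2 were lower, while with a mitochondrial limit of 5% 3 were higher and 2 lower. The share of all genes past the fold was not taken under these settings. Without the cells that also met another class rule, 1 in 4T1P and 4 in 4T1M, Egr1 stood at 1.53 and Atf3 at -1.56. Neutrophil markers summed to 53.6 CPM in 4T1P T/NK cells and 449 in 4T1M T/NK cells, and macrophage markers to 359 and 256, and their part in these ratios was not tested.

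Over all retained cells together, Fos stood at 1127 CPM in 4T1P and 800 in 4T1M, a log2 ratio of -0.49, although its ratio within neutrophils was 0.01 (-0.09 to 0.10). Neutrophils, which had a lower Fos level than macrophages, were 612 of 1726 retained cells in 4T1P and 1686 of 3461 in 4T1M. They held 2502947 of 12948585 retained UMIs in 4T1P and 6580005 of 19302483 in 4T1M. The cells that met no class rule, 243 and 705, had a Fos ratio of -0.62 (-0.71 to -0.52), past the fold, and an Egr1 ratio of 0.35. Their markers were not examined, so neutrophils low in S100a8 and S100a9 may be among them. Within macrophages the Fos ratio was -0.35. The parts of the class mix and of the level within each class in the ratio over all cells were not tested.

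The second comparison asks how the genes differed between neutrophils and macrophages of the same tumours. Here each library supplied both classes, and edgeR's quasi-likelihood test was run on the 4 sums with the library as a block. So few sums give little spread for each gene, so the test borrows spread across genes, and its small p-values rest on that. The scaling matters, because the 10 most abundant genes took 31.6% and 30.4% of neutrophil UMIs against 12.7% and 12.8% of macrophage UMIs. TMM scaling, which sets the bulk of genes level, gave a median log2 ratio of neutrophils over macrophages of -0.16 over all genes, and scaling by total UMIs gave -1.11, so that each member's ratio was lower under total UMIs. Calls that held under both scalings are given first.

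Under both scalings Fosl2, Jun, Junb and Dusp1 were higher in neutrophils, 4 of 10 members where 17.6% of the 11224 genes tested were, and Fosb was lower, where 37% of genes were. Fosl2 had a log2 ratio of 1.96 with TMM and 0.99 with total UMIs (adjusted p = 1.13e-15 and 7.38e-05). For Dusp1 the ratios were 1.90 and 0.94 (adjusted p = 1.2e-13 and 0.00012), and for Jun 1.67 and 0.71 (adjusted p = 3.08e-12 and 0.000996). Junb was nearer the limit, at 1.29 and 0.32 (adjusted p = 1.35e-08 and 0.0477), and its adjusted p was 0.101 under total UMIs when T/NK sums joined the fit. Fosb stood at -1.77 and -2.73 (adjusted p = 1.87e-13 and 1.11e-07), the largest difference of the 10 under total UMIs.

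The other members depended on the scaling. With TMM 7 members were higher in neutrophils (33.7% of all genes) and 1 was lower (37% of all genes). With total UMIs 4 were higher (17.6% of all genes) and 4 were lower (60.2% of all genes). Fos was below 0 under both, at -0.33 (adjusted p = 0.0796) with TMM and -1.29 (adjusted p = 1.68e-05) with total UMIs. Atf3 changed sign, from 0.43 (adjusted p = 0.0199) to -0.54 (adjusted p = 0.00377), its call with TMM being lost in DESeq2 (adjusted p = 0.0766), and so did Egr1, from 0.37 (adjusted p = 0.0537) to -0.60 (adjusted p = 0.00379). Jund and Ier2 were higher with TMM, at 0.91 and 0.82 (adjusted p = 6.26e-06 and 1.31e-05), and not called with total UMIs, at -0.06 and -0.14. In each library alone, per total UMIs, Fosb was lowest, at -2.69 in 4T1P and -2.78 in 4T1M, and Fosl2 and Dusp1 were the highest pair, at 0.93 and 0.81 in 4T1P and 1.05 and 1.06 in 4T1M. Within the Fos family, then, Fosb and Fosl2 lay on opposite sides of 0 under both scalings.

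**Figure D3:**
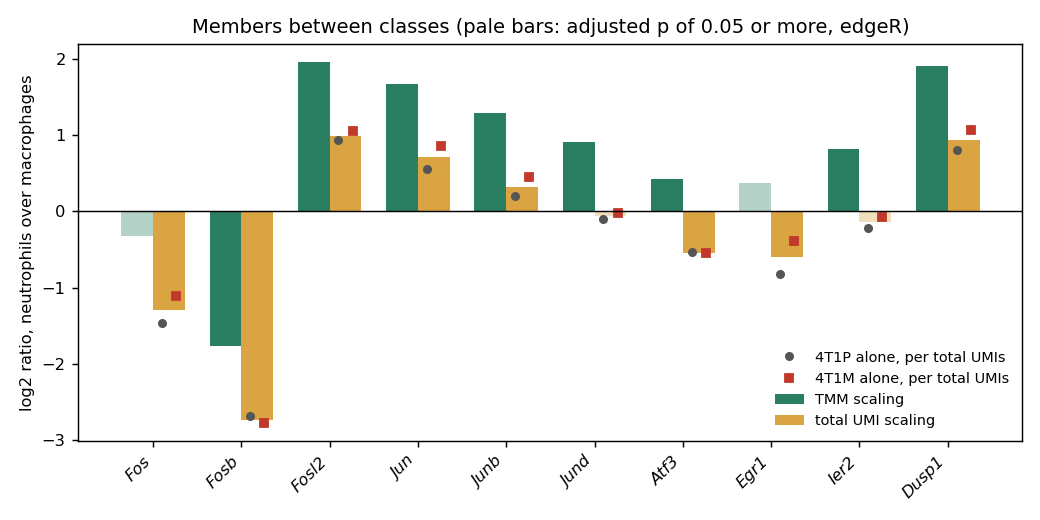
Log2 ratio of neutrophils over macrophages for each member (y axis) with TMM scaling (green bars) and total UMI scaling (yellow bars), with pale bars where the adjusted p of edgeR was 0.05 or more and points for each library alone per total UMIs. Fosl2, Jun, Junb and Dusp1 stay above 0 and Fosb and Fos below 0 under both scalings, whereas Jund, Atf3, Egr1 and Ier2 cross 0.

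T/NK cells were added in a fit of 6 sums, over cells that met 1 rule only. Under both scalings 5 members were lower in T/NK cells than in macrophages (Fos, Fosb, Atf3, Egr1 and Dusp1), where 20.1% of 11086 genes were lower, and 0 were higher, where 20.1% were. With TMM 1 member, Jund, was above macrophages at an unadjusted p of 0.0413. With total UMIs alone edgeR called 3 higher (Fosl2, Jund and Ier2), where 2869 of 11086 genes were. Compared with neutrophils, 5 were lower under both scalings (Fos, Jun, Atf3, Egr1 and Dusp1), where 14.9% of genes were lower, and 0 were higher, where 25.2% were. With TMM 0 were above neutrophils at an unadjusted p under 0.05. With total UMIs alone 3 were called higher (Fosb at 1.51, Jund at 0.72 and Ier2 at 0.79), where 5587 of 11086 genes were. With TMM alone, edgeR called Fosl2 (-1.60), Junb (-1.43) and Jund (-0.53) lower than in neutrophils (adjusted p = 1.25e-05, 2.86e-05 and 0.019). That made 8 members lower with TMM, where 3436 of 11086 genes were. The 2 scalings thus called Jund in opposite directions. Atf3 had the largest gap, at -3.67 with TMM and -3.40 with total UMIs against macrophages (adjusted p = 4.23e-07 and 1.8e-06), and Egr1 the next, at -3.35 and -3.09. T/NK UMIs of the lower members sat in few cells. Besides Atf3 and Egr1, 5 cells held 44.9% and 55.2% of the Fos UMIs, 53.8% and 54.8% of Fosb, 35.8% and 57.4% of Jun and 42.6% and 50.9% of Dusp1, and 1 cell held 99 of the 298 Jun UMIs in 4T1M.

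The third comparison sets the members against cell states within a class, each state being the cells in the top 25% by the share of UMIs in a fixed list of genes. Such a range is a part of a gradient and not a cell type, no list held a member, and the values are a description. Heat shock genes are described first, a list of 15 with chaperones induced by unfolded protein, such as Hspa1a and Dnajb1, and the factor Hsf1. Heat-shock-high neutrophils, at or above 0.419% of UMIs, had Jun at 1939 and 1901 CPM against 585 and 595 in the other neutrophils, Fos at 1010 and 991 against 366 and 340, and Fosb at 245 and 204 against 89.1 and 88.0. The log2 ratios were 1.73 and 1.68 for Jun, 1.47 and 1.54 for Fos, 1.46 and 1.21 for Fosb and 0.77 and 1.13 for Atf3. These 4 members were past 1.5-fold in both libraries, where 10.8% of 3641 genes were. Ier2, at 0.01 and 0.05, Fosl2, at 0.19 and 0.17, and Junb, at 0.20 and 0.26, differed little between the ranges. Jund, Egr1 and Dusp1 lay between, at 0.44 to 0.59.

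Heat-shock-high neutrophils were shallower than the others, with median depths of 2508 and 2653 UMIs against 3324 and 3057, so that the ratios were also taken within 3 depth ranges. Jun stayed above 0 in all 6 values, from 0.75 to 2.17, and Fos in all 6, from 0.81 to 1.80. Fosb was short of 1.5-fold in 3 of 6, at 0.37 (-0.54 to 1.27) and 0.42 (-0.25 to 1.07) in the lowest and middle 4T1P ranges and 0.49 in the lowest 4T1M range, and between 1.08 and 2.47 in the others. Atf3 was -0.47 in the shallowest 4T1P neutrophils, from 112 and 261 UMIs, and between 0.75 and 1.34 in the other 5. Within the heat-shock-high range the libraries were alike, with Jun at -0.03 (-0.14 to 0.08) and Fos at -0.03 (-0.18 to 0.12) for 4T1M over 4T1P. The share of neutrophils in the range was 25.2% and 24.97%.

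In macrophages the same list picked out Jun, at 1.05 and 1.14, and Fos, at 0.995 and 0.68, 2 members past 1.5-fold in both libraries where 0.397% of 8313 genes were. In the shallowest macrophages the intervals of Fos included 0, at 0.04 (-0.24 to 0.32) and -0.16 (-0.53 to 0.20), and Jun stood there at 0.60 and 0.19 (-0.36 to 0.71). In the middle and deepest ranges Jun stood between 0.73 and 1.22 and Fos between 0.52 and 1.11. Junb was again nearly level between the ranges, at 0.07 and -0.02, but Ier2 was not, at 0.78 and 0.47. Between libraries, several members were further apart in heat-shock-high macrophages than in the others. Egr1 in that range was 2011 CPM in 4T1P and 1358 in 4T1M, a log2 ratio of -0.57 (-0.63 to -0.50), against -0.11 (-0.16 to -0.06) in the other macrophages. For Fos the ratios were -0.47 and -0.16, and for Dusp1 -0.47 and -0.05. Jun did not share this, at -0.08 and -0.18. The difference between ranges was not tested, since each ratio rests on 1 library per arm.

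**Figure D4:**
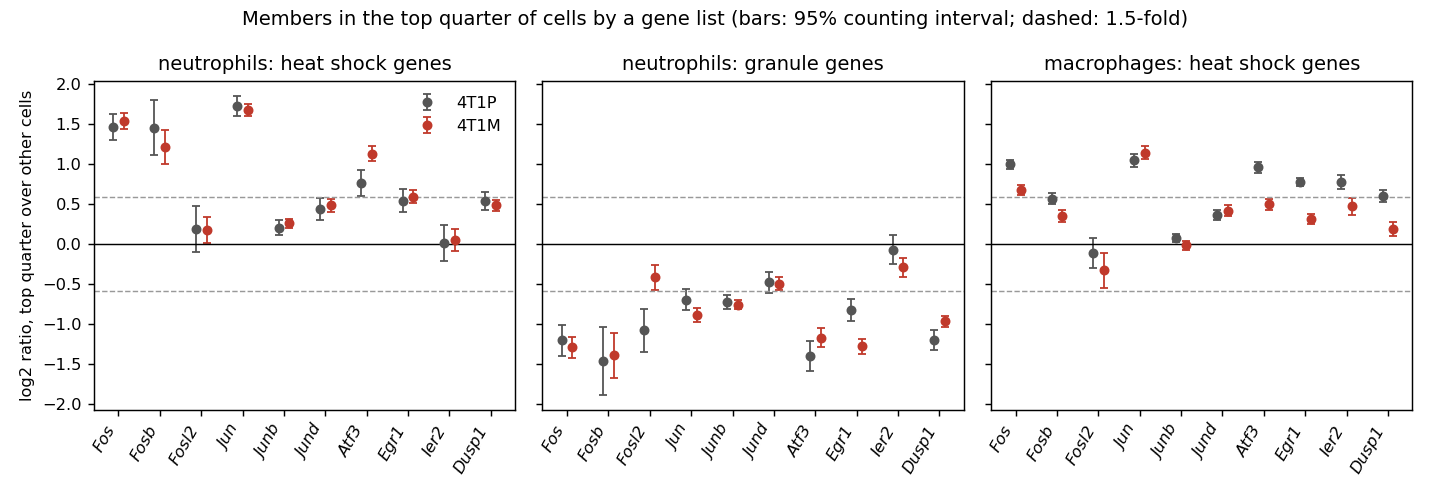
Log2 ratio of the top 25% of cells over the other cells of the class for each member (y axis), in neutrophils by heat shock genes (left) and granule genes (middle) and in macrophages by heat shock genes (right), for 4T1P (grey) and 4T1M (red) with 95% counting intervals. The cut for the top 25% was taken over both libraries pooled. Jun, Fos and Fosb stand at 1.21 to 1.73 in heat-shock-high neutrophils, while Ier2 lies at 0.01 and 0.05.

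Granule-high neutrophils, marked by genes of early maturation such as Camp, Ltf and Ngp, had all 10 members below 0 in both libraries. Of these, 7 were lower by at least 1.5-fold in both (Fos, Fosb, Jun, Junb, Atf3, Egr1 and Dusp1), where 22.2% of 3642 genes were, and the median of all genes was itself at -0.38 and -0.31. Fosb had ratios of -1.46 and -1.39, Atf3 of -1.40 and -1.17 and Fos of -1.21 and -1.29, whereas Ier2 had -0.07 and -0.29. These cells were deeper, at medians of 4306 and 4171 UMIs against 2873 and 2685. Within the deepest range Fos stood at -1.21 and -1.42 and Jun at -0.68 and -1.06. Within the middle range Fos stood at -0.52 and -0.18 and Jun at -0.06 and 0.11, and within the shallowest range Fos stood at 0.01 and -1.02 and Jun at 0.21 and -0.11. A lower Jun in both libraries was thus measured in the deepest range alone.

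Inflammatory neutrophils, marked by Tnf, Il1a, Il23a and NF-kB targets, had Egr1 at 1.12 and 0.82, Junb at 0.77 and 0.69 and Dusp1 at 0.70 and 0.79, 3 members past 1.5-fold in both libraries where 7.91% of 3640 genes were. Within depth ranges all 3 stayed above 0, but Dusp1 was past the fold in the deepest range alone, at 0.84 and 1.03 against 0.37 to 0.54 in the others. Egr1 was short of the fold in 3 of 6 values, with 0.21 in the middle 4T1M range the lowest, and Junb in the middle range of both libraries, at 0.47 and 0.34. The range held 11.6% of 4T1P and 29.9% of 4T1M neutrophils. Within it Egr1 was lower in 4T1M, at 1294 CPM against 1586, a ratio of -0.29 (-0.45 to -0.13), and outside it Egr1 was alike at 732 and 728 CPM, so that the small excess of Egr1 over all 4T1M neutrophils was present in neither part. Jun was also lower in 4T1M within this range, with 1449 CPM in 4T1P and 1028 in 4T1M, a ratio of -0.50 (-0.66 to -0.32). Outside it Jun stood at 784 CPM in 4T1P and 851 in 4T1M.

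Interferon-high neutrophils, marked by Ifit, Isg15 and Oasl genes, had 1 member past the fold in both libraries, Atf3 at 1.02 and 0.62, where 3.54% of 3641 genes were. Among macrophages, those high in antigen presentation genes had 0 members past the fold in both, where 2.38% of 8322 genes were, with Fosb at 0.90 and 0.47 and Atf3 at 0.77 and 0.43. The resident-like range had 0 members, where 3.8% of genes were, with Jun at 0.43 and 0.64. The Arg1-high range had 1 member lower by at least 1.5-fold in both, where 6.04% of genes were: Fosb at -0.66 and -0.78. Cells of these macrophage ranges were deeper than the other macrophages in both libraries. For Arg1-high cells the medians were 13650 and 11188 UMIs against 8467 and 8482. No ratio was taken within depth ranges for them.

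The members also moved with depth and with the mitochondrial share, and their sum ran in opposite directions with depth in the myeloid classes. Summed over the 10 genes, the level in neutrophils was 10367 and 10700 CPM in the lowest depth range and 6361 and 6706 in the highest, and Fos stood at 1015 and 858 CPM in the lowest and 332 and 381 in the highest. In macrophages the sum was 7318 and 5591 CPM in the lowest range and 9049 and 8238 in the highest. Heat shock genes ran the same way in neutrophils, at 5845 and 5272 CPM in the shallowest neutrophils and 2416 and 3098 in the deepest. In macrophages Fosb stood at 386 and 467 CPM under 2.5% mitochondrial UMIs, 663 and 726 from 2.5% to 5%, and 901 and 948 from 5% to 10%. Over 10%, in barcodes that were left out, it was 1036 and 764. Junb differed less, at 1592 and 1438 CPM in the lowest range and 1807 and 1626 in the 5% to 10% range. Among barcodes left out of all classes, those under 500 genes held 2404 and 3974 CPM of the 10 genes and those over 5000 genes 9782 and 7927, beside 8716 and 8053 in the retained cells. The part of depth, mitochondrial share or handling in the differences above was not tested.

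**Figure D5:**
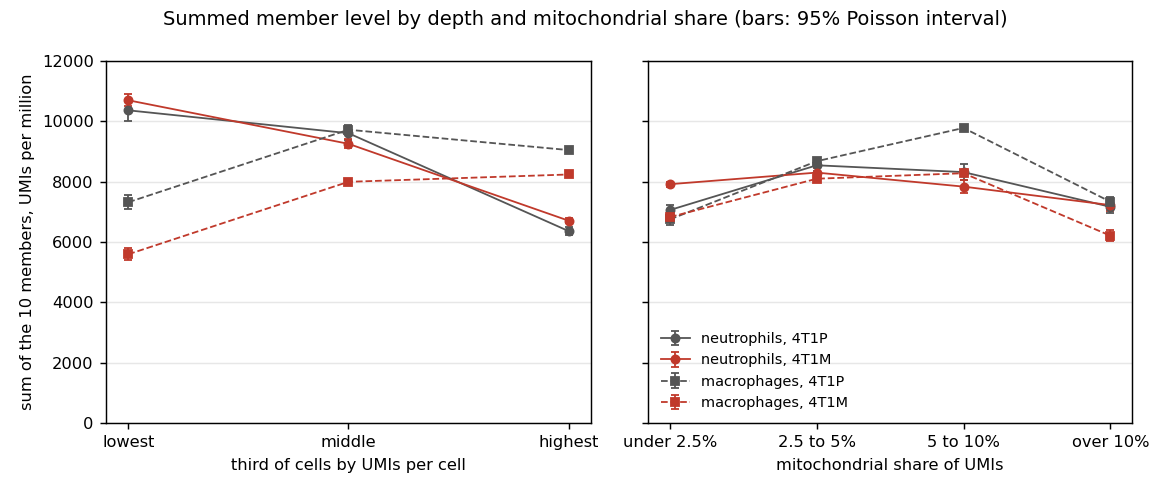
Sum of the 10 members in CPM (y axis) by depth range (left) and by mitochondrial share (right), for neutrophils (circles, solid) and macrophages (squares, dashed) of 4T1P (grey) and 4T1M (red) with 95% Poisson intervals. The neutrophil lines fall from about 10367 and 10700 to 6361 and 6706 with depth, whereas the macrophage lines are lowest at the lowest depth (7318 and 5591).

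Other genes of the pathway were taken from lists that hold no member. In neutrophils, of 30 other early-response genes with enough UMIs 3 were higher in 4T1M past the fold and 0 were lower, a share near the 9.81% and 3.12% of all genes, with a median log2 ratio of 0.28 against 0.05 over all genes. The 3 were Plk2, a stress-responsive kinase, at 41.2 and 86.6 CPM (1.07), Egr2, a relative of Egr1, at 13.6 and 21.6 CPM (0.67), and Gadd45g, which activates MAP kinase kinase kinases, at 86.7 and 137 CPM (0.66). Ppp1r15a, which reverses the block on translation under stress, was just short of the fold at 771 and 1157 CPM (0.58). In macrophages 0 of 32 were higher and 1 was lower, with a median of 0.00095.

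Of 14 other AP-1 family factors 3 were higher in 4T1M neutrophils and 0 lower, against 9.81% and 3.12% of all genes, with a median of -0.01. Among those higher, Batf, a partner of Jun proteins in immune cells, was at 17.6 and 27.4 CPM (0.64). Atf7 rested on 10 and 50 UMIs (0.93, -0.07 to 2.07) and was chosen for naming after its value was seen. Maff, a small Maf protein without its own activation domain, was at 173 and 251 CPM (0.54), and Jdp2, which represses AP-1, at 270 and 192 CPM (-0.49), both short of the fold. Of 7 other MAP kinase phosphatases 3 were higher and 0 lower, with a median of 0.40. Dusp2, a nuclear phosphatase of immune cells, was at 38.4 and 62.3 CPM (0.70), while Dusp5, which acts on ERK in the nucleus, was level at 292 and 292 CPM. The other 2 that were higher, Dusp3 and Dusp4, rested on 9 and 43 and on 10 and 51 UMIs and were named after their values were seen. Dusp16, which acts on JNK, was at 177 and 230 CPM (0.38), and Dusp6, which acts on ERK, at 32.8 and 24.2 CPM (-0.44). Of the kinases and activators upstream, 1 of 17 was higher and 0 lower, with a median of 0.17. This was Elk3, at 8.79 and 15.7 CPM (0.83), beside Mapk8, the kinase JNK1, at 30.4 and 41.5 CPM (0.45), Creb1 at 38.0 and 49.2 CPM (0.38) and Map2k4, which activates JNK, at 83.5 and 60.9 CPM (-0.45).

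Genes with known AP-1 sites included 4 of 14 that were higher in 4T1M neutrophils and 0 that were lower, against 9.81% and 3.12% of all genes, with a median of 0.20. Tnf stood at 292 and 693 CPM (1.25), Plau at 28.8 and 53.8 CPM (0.90), Ccl4 at 1732 and 3007 CPM (0.80) and Ccl3 at 4715 and 7310 CPM (0.63). Tnf is also in the inflammatory list, and no member was past the fold in the same neutrophils. Of 12 heat shock genes 0 were higher and 1 lower, with a median of -0.10. This was Hsph1, at 15.2 and 7.60 CPM (-0.999), named after its value was seen. Hspa1a was at 399 and 280 CPM (-0.51), Dnaja1 at 292 and 239 (-0.29), Dnajb4 at 20.8 and 28.6 (0.46) and Hspa5, the chaperone of the endoplasmic reticulum, at 954 and 1114 (0.22). In macrophages 1 of 15 genes with AP-1 sites was higher (Ccl3 at 0.75) and 2 were lower (Mmp9 at -1.72 and Timp1 at -0.94, named after their values were seen), with a median of 0.03. There 0 of 15 heat shock genes were past the fold, with a median of -0.06, 0 of 11 phosphatases and 0 of 22 kinases and activators, the last with a median of -0.20. Of 17 other AP-1 factors 1 was higher and 2 were lower, with a median of 0.07, where 4.03% of all genes were higher and 4.08% lower. In T/NK cells the counts higher and lower were 0 and 1 of 8 other AP-1 factors and 2 and 3 of 24 early-response genes. They were 1 and 1 of 4 phosphatases, 0 and 4 of 13 heat shock genes and 0 and 1 of 9 kinases and activators. Of 6 genes with AP-1 sites 3 were higher and 2 lower. Over all genes counted in T/NK cells, 5.57% were higher and 12.2% lower. The 3 higher with AP-1 sites were Cxcl2, Il1b and Ccl3 and the 2 lower Cd44 and Spp1, named after their values were seen. Cxcl2 stood at 115 and 1152 CPM there, beside 34683 and 46282 in neutrophils. Neutrophil markers in T/NK cells summed to 53.6 and 449 CPM, and their part in these counts was not tested.

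The genes whose profile over the 6 class and library sums came nearest to Fos, among 4419 genes, were Rab5c, Acsl4, Necap2, Arrb2 and Lrrc8d, at distances of 0.22 to 0.46 on the centred log2 scale. Those nearest to Jun were Wbp2, Il17ra, Ciapin1, Dph3 and Gsk3a, at 0.20 to 0.28. Rab5c stood at 99.1 and 107 CPM in neutrophils, 246 and 210 in macrophages and 70.1 and 67.6 in T/NK cells. No other member was among the nearest 5 of either gene.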

How the data were processed

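The authors deposited 1 matrix of raw UMI counts (genes by barcodes) per library, made with Cell Ranger 4.0.0 on mm10 per the submitters' processing notes. No normalization had been applied. Mice were pooled before loading, so each arm has 1 sample. Barcodes were kept between 500 and 5000 genes and up to 10% mitochondrial UMIs, which left 1726 and 3461. Neutrophils had S100a8 and S100a9 at 1.5% or more of UMIs and C1q genes with Apoe under 0.5%, macrophages had the former under 1.5% and C1q genes, Apoe, Csf1r, Cd68 and Fn1 at 0.3% or more, and T/NK cells held UMIs of at least 2 of Cd3d, Cd3e, Cd3g, Trac, Trbc2 and Nkg7. No doublet caller was run. Cells meeting 2 rules numbered 1 in 4T1P and 4 in 4T1M, and barcodes over 5000 genes were left out. The members, the gene lists and the class rules were chosen with earlier results of these data known.

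Levels are counts per 1000000 UMIs of the class (CPM), with exact Poisson intervals, and ratios between libraries carry exact conditional intervals (95%, scipy 1.17.1, numpy 2.4.6, Python 3.11.15). These cover counting error only, and no test between arms was possible. Neutrophils and macrophages were compared with edgeR 4.0.16 (R 4.3.3), quasi-likelihood test, TMM scaling, the library as a block, and Benjamini-Hochberg adjustment over all genes tested. Scaling by total UMIs, and a fit with T/NK sums, were added after the data were seen, as were the ratios within depth and score ranges and the count of UMIs in the top 5 T/NK cells. DESeq2 1.42.0 was an alternative. The scripts were tested on simulated data. Both classes of a library come from the same pool, which is where the pairing in the block comes from.

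Besides all members, the rule named up to 4 genes of each other list with the largest ratio in neutrophils among those with at least 100 UMIs there, and the 5 genes nearest to Fos and to Jun over the 6 sums among genes of at least 50 CPM. Promoter windows were taken from RefSeq (GRCm38.p6), matched by symbol. The values of 1 gene that the rule named are not reported here.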

Additional observations from a re-analysis of the deposited data

Results flagged for a closer look

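For 3 genes and for the sum of the members, the log2 ratio of 4T1M over 4T1P lay above 0 in one cell class and below 0 in another with both counting intervals clear of 0. With 1 library per arm, the difference between classes was not tested. The intervals leave out the spread between cells. In neutrophils the variance of Jun over its mean, at 1000 UMIs a cell, was 4.28 and 5.05 where pure counting gives 1. Jun stood at 0.087 in neutrophils, -0.22 in macrophages and -0.31 in T/NK cells. Junb stood at 0.12, -0.13 and -0.27 in the same order. Egr1 stood at 0.13, -0.31 and 0.95, and its T/NK value rested on few cells. The sum of the 10 members stood at 0.042, -0.19 and -0.16.

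The Jun pattern depended on the cells included. Over the alternative filters and scalings its ratio ran from -0.32 to 0.05 in macrophages and from -0.96 to 0.89 in T/NK cells, while in neutrophils it ran from 0.04 to 0.33. Junb kept its side of 0 in each class, from 0.05 to 0.12 in neutrophils, from -0.16 to -0.10 in macrophages and from -0.39 to -0.16 in T/NK cells. All neutrophil and macrophage values were under the 1.5-fold limit.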

How the results depend on the processing

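In neutrophils and macrophages no member passed 1.5-fold between libraries under any of the 11 alternatives. The summed neutrophil ratio, 0.04, was too small to hold its sign: it was 0.068 with a mitochondrial limit of 5%, 0.088 with at least 1000 genes, 0.00015 with TMM, -0.0045 with DESeq2 size factors, -0.0041 per total without mitochondrial and most abundant genes, -0.015 without the deepest 5% of cells and 0.015 as a mean over cells. The macrophage ratio kept its sign, at -0.093 with the 5% limit, -0.16 with TMM, -0.15 with DESeq2 size factors and -0.22 without the deepest cells. The T/NK ratio was -0.025, -0.056, -0.062 and -0.28 under the same 4 settings and -0.29 as a mean over cells. T/NK members past the fold were 3 higher and 2 lower with the 5% limit, 0 and 2 without the deepest cells, and 3 lower as a mean over cells. The share of all genes past the fold was not taken under the alternatives, so these counts have no background. Of 300 single ratios, 259 moved by less than their counting interval.

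Between neutrophils and macrophages, total UMI scaling gave 4 members higher and 4 lower, where 1971 and 6759 of 11224 genes were. With T/NK sums it gave 3 and 2, where 1850 and 6497 of 11086 genes were. It turned Jund to -0.059, Atf3 to -0.54, Egr1 to -0.60 and Ier2 to -0.14, and with T/NK sums to -0.054, -0.53, -0.62 and -0.14. The count lower was 2 with no filter on low counts, with stricter class thresholds and without the deepest cells, Fos being the gene added. Over all genes, in that order, 4706 of 18875, 4168 of 10882 and 4402 of 10939 were lower. The count higher ran from 6 to 8 apart from total UMI scaling. For example, it was 6 with no filter, where 3424 of 18875 genes were higher. It was 8 with DESeq2 size factors, where 3945 of 11224 genes were. The Atf3 call with TMM (adjusted p = 0.0199, edgeR) was lost with DESeq2 (0.0766), stricter thresholds (0.0676), no filter (0.393) and T/NK sums (0.0922). Without the replicate block, 7 were higher and 1 lower, where 3725 and 4070 of 11224 genes were. No call changed, but the adjusted p of Fosl2 in edgeR rose to 2.42e-05. For T/NK cells over macrophages, total UMIs gave 3 higher, where 2869 of 11086 genes were, and turned Jun to 0.091 and Junb to 0.15. Over neutrophils they gave 3 higher and 5 lower, where 5587 and 1653 of 11086 genes were, and turned Jund to 0.72 and Ier2 to 0.79. With TMM 8 were lower there, where 3436 genes were. Leaving out a library kept the sign of each member's ratio between neutrophils and macrophages, but leaves no residual spread to test. The number of cells limits the T/NK class most, at 74 and 98, with 43 to 152 UMIs for Atf3 and Egr1.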
